A study of Mus musculus with 3 samples.

Results

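The clustered replication histone genes were followed in single-cell RNA-seq of mouse kidneys at E15.5 (E, embryonic day). The members were all genes whose symbol starts with Hist1h, Hist2h, Hist3h or Hist4h, and the rule found 67 of the 32285 genes in the count tables. They comprised 6 genes of linker histone H1, 18 of H2A, 18 of H2B, 12 of H3 and 13 of H4. The data held 3 libraries of whole kidneys from B6 mice, 1 per group. Enl-WT kidneys were Enl+/+ and Wt1GFPCre/+. Enl-T1 kidneys were Enl flox-T1/+ and Wt1GFPCre/+, so that Cre switches 1 Enl allele to a form with 3 inserted amino acids. Enl-T1 TDI-11055 kidneys had the Enl-T1 genotype and came from mothers dosed orally with 100 mg/kg TDI-11055 once a day between E10.5 and E14.5 (treated Enl-T1 below). Neither of the other groups was treated, and no library of vehicle-treated embryos was used here. ENL, the product of Mllt1, reads acylated histones through a pocket that TDI-11055 blocks. The Cre knock-in removes the function of 1 Wt1 allele in all 3 groups, and it drives Cre where Wt1 is active, in nephron and stromal cells but not in the ureteric epithelium. Each untreated library pooled kidneys of more than 1 embryo, the number behind the treated library is not given in the sources used here, and no cell can be traced to an embryo. So 1 library is 1 sample, no test between groups was possible, and the intervals below are 95% intervals for counting error only.

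Histones package DNA into nucleosomes, whose core holds H2A, H2B, H3 and H4, while H1 binds the DNA that links them. A dividing cell needs a new set for its copied DNA, and most of this supply comes from genes packed into a few clusters that are active in S phase. Their mRNAs are unusual in ending at a short stem-loop and not in a poly(A) tail, although some of the genes can also give polyadenylated RNA, and the assay used here captured RNA through its stretches of A.

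The 54 Hist1 genes lay between 21715763 and 23934851 on chromosome 13, the 10 Hist2 genes on chromosome 3, the 2 Hist3 genes on chromosome 11 and Hist4h4 on chromosome 6 (GENCODE M21 annotation of GRCm38, the mm10 assembly). A stem-loop was found in the annotated transcripts of 43 members, of which 22 ran on for more than 100 bases after it. The loops of 6 members that the results turn on are printed to show how alike the ends of these genes are and where they differ, with the 16 bases of the loop in capitals and the neighbouring bases in lower case (in histone genes the loop lies in the 3′ UTR):
Hist1h2ae, chr13:23570517-23571220, minus strand: aaGGCTCTTTTCAGAGCCattcact
Hist1h2ap, chr13:21833026-21833507, minus strand: aaGGCTCTTTTCAGAGCCatc
Hist1h1e, chr13:23620629-23622558, minus strand: aaGGCTCTTTTCAGAGCCacccaca
Hist3h2ba, chr11:58948920-58949533, plus strand: aaGGCTCTTTTCAGAGCCaccttcc
Hist1h4d, chr13:23581598-23582735, plus strand: aaGGCCCTTTTCAGGGCCactacct
Hist2h2ac, chr3:96220361-96220880, minus strand: aaGGCTCTTTTTAGAGCCaccaaat
The loop letters were the same in Hist1h2ae, Hist1h2ap, Hist1h1e and Hist3h2ba, whose levels differed widely between cells and groups (below). Past the loop, Hist1h2ap had 3 annotated bases, Hist2h2ac 57, Hist1h2ae 151, Hist3h2ba 169, Hist1h4d 770 and Hist1h1e 1153. A poly(A) signal lay after the loop, or in the last 40 bases where there was none, in 20 of the 67, among them Hist1h2ae, Hist3h2ba and Hist1h4d but not Hist1h2ap, Hist1h1e or Hist2h2ac.

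Hist1h1b, the member with the most UMIs in Enl-WT, had no stem-loop in its annotated transcript of 743 bases (chr13:21779883-21780625, minus strand). Because the assay catches stretches of A, the 20-base window richest in A is given for 2 of the members that lacked a poly(A) signal, all in lower case:
Hist1h1b, 14 of 20 bases: aagaagaagacaacgaaaaa
Hist1h2ap, 16 of 20 bases: ccgaaaagaaaaaaaaaaaa
These windows are a description of the annotated RNA, and the site of capture was not tested. Copies of histone genes are much alike, and 32 members shared more than 50% of their 60-base stretches with another gene. Hist1h2ap shared 92.9% and Hist1h2ae 39.2%, whereas Hist1h1b and Hist1h1a shared 0%, so the count of Hist1h2ap is uncertain between near copies. Members that shared more than 50% had a median of 1.37 CPM (UMIs per 1e6 UMIs of the same cells), against 7.32 CPM for the 35 others.

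The promoters of 61 members were found in the RefSeq table (GRCm38.p6), as the 250 bases before and 50 bases after the start of each gene. The letters CCAAT, the core of a box bound by the factor NF-Y, were present on either strand in 52 of them (85.2%), against 37.4% of the 32851 promoters in the table. The 12 H4 promoters differed from the rest in that 3 of them (25%) held CCAAT, whereas every promoter of the other types did. ATTTGCAT, an octamer bound by Oct factors, occurred in 7 H2A and 6 H2B promoters and in none of H1, H3 or H4, against 1.74% of all promoters. AAACACA occurred in 5 of 6 H1 promoters, against 7.18% of all promoters. TATAAA was found in 35 member promoters (57.4%), against 13.6% of all. These are matches of letters, not sites shown to be bound.

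Barcodes with 1000 to 6000 detected genes and at most 10% mitochondrial counts were kept, which left 5233 Enl-WT, 4144 Enl-T1 and 2754 treated Enl-T1 cells. The median depth was 5090, 9391 and 16931 unique molecular identifiers (UMIs) per cell. For the cell cycle calls and the shares of cells with any histone UMI, each cell was thinned to 2000 UMIs. Shares of cells with a UMI of a single gene were not thinned. Ribosomal protein genes took 15.9%, 26.4% and 26.9% of the counts. Pairs of libraries shared 5 to 8 cell barcodes, and none was in all 3. Mllt1 was counted at 26.9, 20.1 and 18.3 CPM in nephron cells of Enl-WT, Enl-T1 and treated Enl-T1, which cannot check the labels, since the assay reads the 3′ end and the insertion lies upstream. Wt1 was at 222, 108 and 75.6 CPM in nephron cells.

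Members of the clusters gave 45620, 39200 and 47532 UMIs in the Enl-WT, Enl-T1 and treated Enl-T1 libraries, or 1424.3, 887 and 1097.6 CPM. Of the 67 members, 29 reached 5 CPM on average over the libraries and together held 94.8% of the histone UMIs. These were 5 of the H1, 7 of the H2A, 8 of the H2B, 5 of the H3 and 4 of the H4 genes. A further 35 lay between 0.0077 and 4.67 CPM, and Hist2h2aa2, Hist1h2ba and Hist1h2aa had no UMI in any kept cell. Hist1h1t, the testis form of H1, was among the low members, at 0.562, 0.181 and 0.323 CPM. Each captured molecule counts once here whatever the length of its gene, so levels of different genes are not ranked as amounts of transcript.

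**Figure D1:**
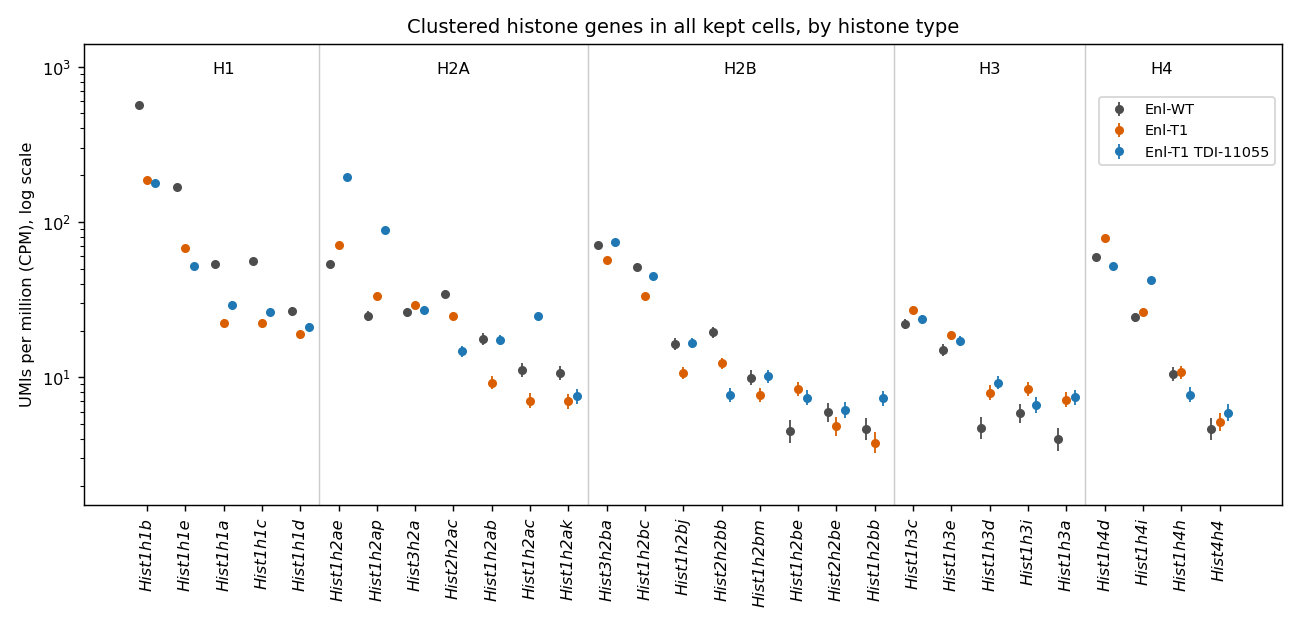
Level in CPM (log axis) of the 29 members that reached 5 CPM on average, grouped by histone type, with 1 point per library and bars for the 95% counting interval. The H1 genes Hist1h1b, Hist1h1e, Hist1h1a and Hist1h1c were higher in Enl-WT than in both Enl-T1 libraries, and the H2A genes Hist1h2ae and Hist1h2ap were highest in treated Enl-T1.

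Among H1 genes, Hist1h1b was at 563 CPM in Enl-WT, 186 CPM in Enl-T1 and 178 CPM in treated Enl-T1, and it alone made up 39.5%, 21% and 16.2% of all histone UMIs. Hist1h1e followed with 168, 68.3 and 52.4 CPM. Hist1h1a was at 53.3, 22.4 and 29.2 CPM and Hist1h1c at 55.9, 22.3 and 26.3 CPM. All 4 were more than 2-fold higher in Enl-WT than in untreated Enl-T1. Hist1h1d, at 26.6, 18.9 and 21.1 CPM, differed least.

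Among H2A genes the order of the libraries was different. Hist1h2ae was at 53.7 CPM in Enl-WT, 70.8 CPM in Enl-T1 and 196 CPM in treated Enl-T1, and Hist1h2ap at 24.8, 33.5 and 89.1 CPM. Both were highest in the treated library. Hist2h2ac ran the other way, with 34.6, 24.8 and 14.7 CPM. Hist3h2a was nearly level at 26.3, 29.4 and 27.1 CPM.

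Among H2B genes, Hist3h2ba was at 71.2, 56.8 and 74.7 CPM and Hist1h2bc at 51, 33.2 and 44.9 CPM. For both, untreated Enl-T1 was the lowest library. Hist2h2bb, which overlaps a gene on the same strand and shares 100% of its 60-base stretches with other genes, was at 19.5, 12.3 and 7.71 CPM. Of the genes for H3, Hist1h3c had the highest counts, with 21.9, 27.2 and 23.6 CPM. Of the genes for H4, Hist1h4d had 59.5, 78.4 and 52 CPM and Hist1h4i 24.3, 26.2 and 42.5 CPM.

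The make-up of the histone UMIs by type does not depend on how the libraries are scaled, and it differed between the 3 libraries. H1 genes held 60.9% of histone UMIs in Enl-WT (95% exact Clopper-Pearson interval 60.4 to 61.3), 35.9% in Enl-T1 (35.4 to 36.3) and 28% in treated Enl-T1 (27.6 to 28.4). The H2A share ran in the opposite order, with 13.6%, 22.6% and 36.1%. A share depends on the other types too. The H2A level was 193, 200 and 396 CPM, nearly the same in Enl-WT and untreated Enl-T1, and the H1 level was 867, 318 and 307 CPM. H2B genes held 13.6%, 17.5% and 17.7%, H3 genes 4.26%, 8.89% and 6.83%, and H4 genes 7.67%, 15.2% and 11.4%. The order of the libraries was the same in nephron cells, where H1 held 58.8%, 32.6% and 25.6%, and in stroma, where it held 67.6%, 40.6% and 37.4%. In ureteric epithelium the H1 share was 60.5%, 35.2% and 28.5%, and in endothelium 62.3%, 45.3% and 29.6%. The H2A share in ureteric epithelium was 14.8%, 22.7% and 36.2%, close to the 13.2%, 23.4% and 36.8% of nephron cells.

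**Figure D2:**
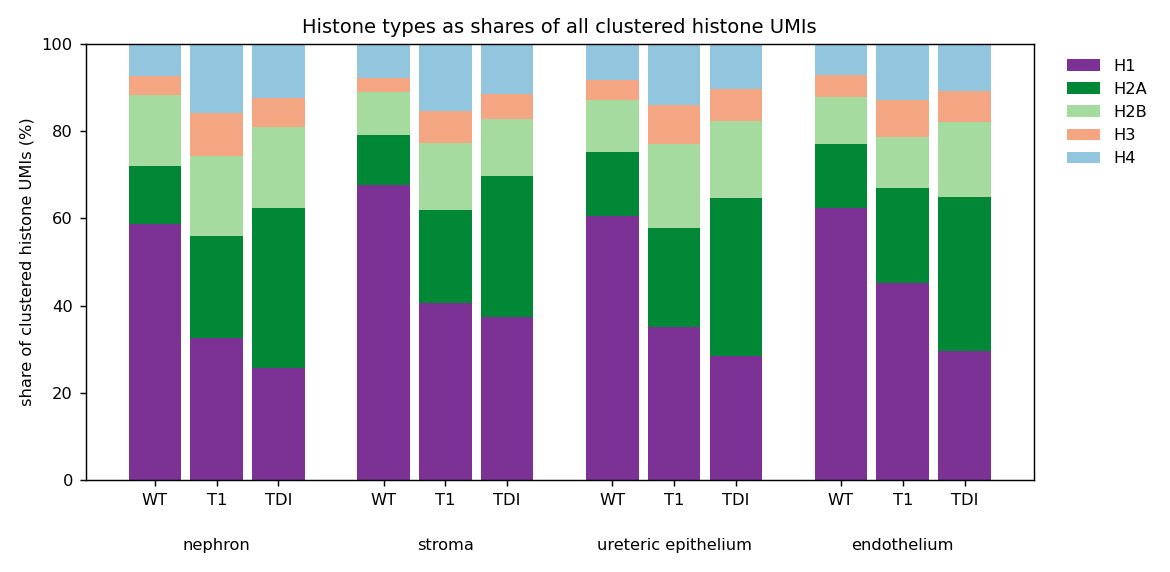
Share of histone UMIs (%) from H1, H2A, H2B, H3 and H4 genes in each library, for nephron, stroma, ureteric epithelium and endothelium. In each of the 4 lineages the H1 share is highest in Enl-WT and lowest in treated Enl-T1, and the H2A share runs in the opposite order.

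Within a type the mix moved less. Hist1h1b made up 64.9%, 58.5% and 57.9% of H1 UMIs, Hist1h1e 19.4%, 21.5% and 17.1%, and Hist1h1d 3.07%, 5.94% and 6.88%. Within H2A, in contrast, Hist1h2ae held 27.8%, 35.4% and 49.6% of the UMIs of Enl-WT, untreated and treated Enl-T1, and Hist1h2ap held 12.8%, 16.7% and 22.5%. The count of barcodes above the limit of 6000 genes was 55, 309 and 577. With them included, the H1 share was 60.6%, 36% and 28.7%.

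The members were then set beside the cell cycle. A cell was counted as in S phase when at least 3 of 39 S-phase genes (such as Mcm2, Pcna and Tyms, none of them a histone) had a UMI after thinning, and as carrying mitosis genes when at least 2 of 5 did (Hmmr, Cenpf, Ube2c, Top2a and Mki67). S-phase cells made up 59.1% of Enl-WT, 41.6% of Enl-T1 and 61.4% of treated Enl-T1 cells. The cut is a point on a range, since 770, 699 and 398 cells had exactly 2 such genes and 567, 432 and 351 exactly 3. Cells with under 2000 UMIs, 96, 15 and 20 of them, were left out.

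Summed histone counts were 3.85-fold higher in S-phase than in other cells of Enl-WT (interval 3.75 to 3.95), 3.67-fold higher in Enl-T1 (3.58 to 3.75) and 3.23-fold higher in treated Enl-T1 (3.15 to 3.31). For comparison, the median over all genes of at least 5 CPM was 0.948, 0.958 and 0.941. Of the 29 members, 25, 26 and 25 were higher past 1.4-fold, the fold change used by the study, against 11.7%, 8.53% and 7.68% of all genes. In the other direction, 3, 2 and 2 members were lower past 1.4-fold, against 18.7%, 12.3% and 14.3% of all genes. In every library 24 members were higher, and 1, Hist3h2a, was lower.

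By type, H1 genes differed most between S-phase and other cells, at 6.65-fold, 6.39-fold and 5.47-fold. H3 genes were at 4.46-fold, 4.55-fold and 3.57-fold, H2A genes at 3.6-fold, 4.08-fold and 4.43-fold, and H4 genes at 3.73-fold, 3.64-fold and 3.31-fold, with H3 second in Enl-WT and untreated Enl-T1 and H2A second in treated Enl-T1. The H2B sum stood apart, with 1.04-fold, 1.37-fold and 1.22-fold. It includes the abundant Hist3h2ba and Hist1h2bc, at 0.656 and 0.649 (geometric mean of the libraries). The other H2B genes of at least 5 CPM ran from 1.65 for Hist2h2be to 6.6 for Hist1h2bm.

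Hist1h1a had the highest ratio. Its level was 82.2 CPM in S-phase and 8.18 CPM in other cells of Enl-WT, 43 and 3.91 CPM in Enl-T1, and 43.3 and 4.67 CPM in treated Enl-T1, ratios of 10.1, 11 and 9.29. Hist1h1b was at 860 against 95.4 CPM, 350 against 38.9 CPM and 265 against 28.1 CPM, ratios of 9.01, 9 and 9.43. Hist1h2ap was at 37.4 against 5.18 CPM, 63.3 against 6.65 CPM and 132 against 15.6 CPM, ratios of 7.21, 9.52 and 8.42. The ratio of each of these genes differed between the libraries far less than its level did. Hist1h2ae had ratios of 8.6, 7.59 and 5.8, Hist1h4d 4.55, 4.38 and 3.8, Hist1h1e 4.7, 4.62 and 3.81, and Hist1h1c 2.11, 1.9 and 1.25.

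Of the 29 members, 3 had more counts outside S phase. Hist3h2ba was at 53.7 CPM in S-phase against 99.3 CPM in other cells of Enl-WT, 48.6 against 64.2 CPM in Enl-T1 and 64.2 against 93 CPM in treated Enl-T1, ratios of 0.541, 0.757 and 0.69. Hist1h2bc was at 40.1 against 67.9 CPM, 24.2 against 41.3 CPM and 40.9 against 51.8 CPM, ratios of 0.59, 0.586 and 0.79. Hist3h2a was at 19.9 against 36.4 CPM, 22.8 against 35.3 CPM and 22.1 against 35.8 CPM, ratios of 0.546, 0.646 and 0.617. Both members of the small Hist3 cluster were thus on the non-S side in all 3 libraries. These ratios pool all cell classes, and ratios within a class were not counted for single genes. Podocyte-like cells, the class highest in Hist3h2ba (below), had 14.1%, 15.6% and 22% of cells in S phase. The part of cell class in these ratios was not tested. The annotated Hist3h2a overlaps Trim17 on the same strand. The 12 members with a poly(A) signal had a median ratio (geometric mean of the libraries) of 2.69, and the 17 without one 5.5.

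**Figure D3:**
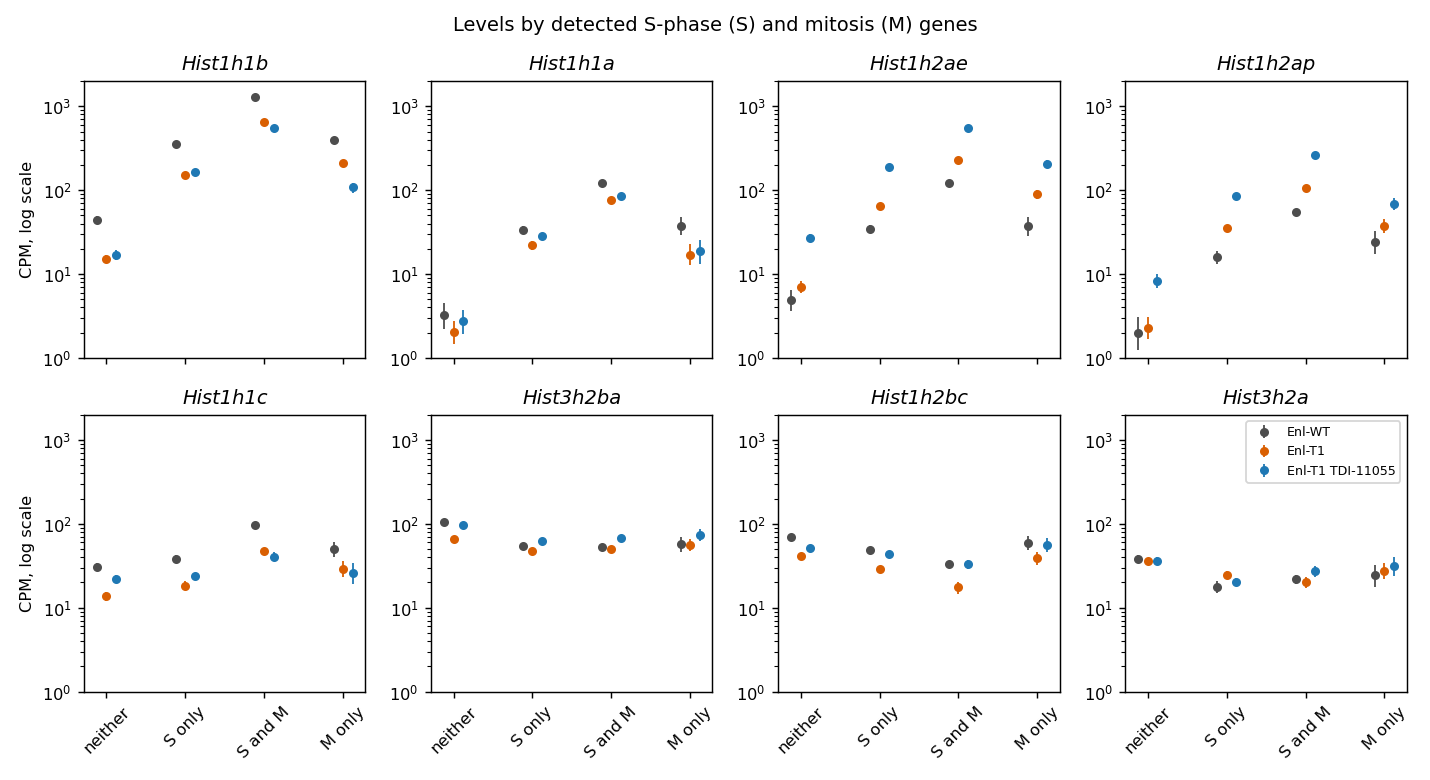
Level in CPM (log axis) of 8 named members in cells with S-phase genes only, with S-phase and mitosis genes, with mitosis genes only and with neither, with 1 point per library and bars for the 95% counting interval. Hist1h1b and Hist1h2ap are highest in cells with both gene sets, whereas Hist3h2ba, Hist1h2bc and Hist3h2a are not.

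Cells that carried both S-phase and mitosis genes had the highest histone level in each library. They made up 28.3% of Enl-WT, 14.1% of Enl-T1 and 16.8% of treated Enl-T1 and held 67.7%, 51.8% and 41.1% of the histone UMIs. Cells with S-phase genes only were 30.8%, 27.5% and 44.6% of cells and held 18.2%, 24.9% and 43.8%, so that in the treated library both sets held a like share. The level was 2884.4, 2464.3 and 2685.8 CPM in cells with both gene sets, against 935, 769 and 1031.7 CPM in cells with S-phase genes only. Cells with mitosis genes only were at 1118.9, 1044.8 and 975 CPM, and cells with neither at 419, 301 and 383 CPM. Across bins of the number of S-phase genes detected, the level went from 408 CPM in Enl-WT cells with 0 such genes to 2887.3 CPM in those with 8 or more, from 327 to 1925.6 CPM in Enl-T1 and from 391 to 2209.8 CPM in treated Enl-T1. After thinning, 74.4%, 65% and 71.2% of S-phase cells had a histone UMI, against 54.2%, 46.1% and 52.2% of other cells. The unthinned shares were 90.1%, 93.5% and 96.3% against 79.4%, 86% and 95.1%.

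The make-up by type differed along the cycle as well. In Enl-WT, H1 held 66.3% of histone UMIs in cells with both gene sets and 29.4% in cells with neither, whereas H2B held 8.25% and 45.8%. The H2B share includes Hist3h2ba and Hist1h2bc, which had more counts outside S phase. The difference in H1 share between libraries was present at each stage. In cells with both gene sets it was 66.3%, 42.4% and 32.2%, with S-phase genes only 58.8%, 34.5% and 27.7%, with mitosis genes only 55.6%, 33.4% and 21%, and with neither 29.4%, 17.7% and 16.4%.

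Cells were clustered without the members, and 17 clusters were named from kidney markers, for example Six2 and Cited1 for nephron progenitors. Immune-like cells, 9, 18 and 5 per library, are not described. The ureteric tip-like class, the growing ends of the collecting duct tree, had histone levels of 2170.8 CPM in Enl-WT, 1741.3 CPM in Enl-T1 and 1806.4 CPM in treated Enl-T1, with 84.5%, 72.3% and 85.4% of its cells in S phase. It was the highest class in both Enl-T1 libraries, but in untreated Enl-T1 its level lay within the interval of the proximal tubule-like class (1683.3 CPM, 1612.9 to 1756.0). In Enl-WT the renin, mesangial and pericyte-like class was higher, at 2314.2 CPM, with 47.5% of its cells in S phase. That class held 182 Enl-WT cells, 101 of untreated Enl-T1, at 1000.1 CPM, and 26 of treated Enl-T1, at 1155.5 CPM.

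Nephron progenitor-like cells were at 1768.9, 1175.1 and 1132.5 CPM, with 74.7%, 59.1% and 70.2% in S phase. Foxd1 stroma-like cells, the progenitors of renal stroma, were at 1798.4, 1320.9 and 1654.5 CPM. Low levels were found in ureteric trunk and collecting duct-like cells, at 328, 254 and 344 CPM with 30.5%, 19.7% and 34.5% in S phase. Podocyte-like cells, the filtering cells of the glomerulus, had a smaller S-phase share, 14.1%, 15.6% and 22%, but were at 761, 482 and 496 CPM. The classes with larger S-phase shares thus tended to have more histone counts. The renin class lay above general stroma-like cells in Enl-WT (50.5% in S phase, 747 CPM) and in treated Enl-T1 (47.1%, 515 CPM). In untreated Enl-T1 it had 39.6% in S phase, and endothelium-like cells had 39.3% at 721 CPM. Podocyte-like cells lay above trunk and collecting duct-like and urothelium-like cells in each library. Their S-phase share was smaller than in both, except for urothelium-like cells of treated Enl-T1 (19.5%). H2B genes gave 396, 176 and 285 CPM of the podocyte-like level. They gave 132, 127 and 138 CPM in urothelium-like and 96.5, 99.4 and 128 CPM in trunk and collecting duct-like cells. Depth, cell number and cycle share differed between classes, and their part in these levels was not tested.

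**Figure D4:**
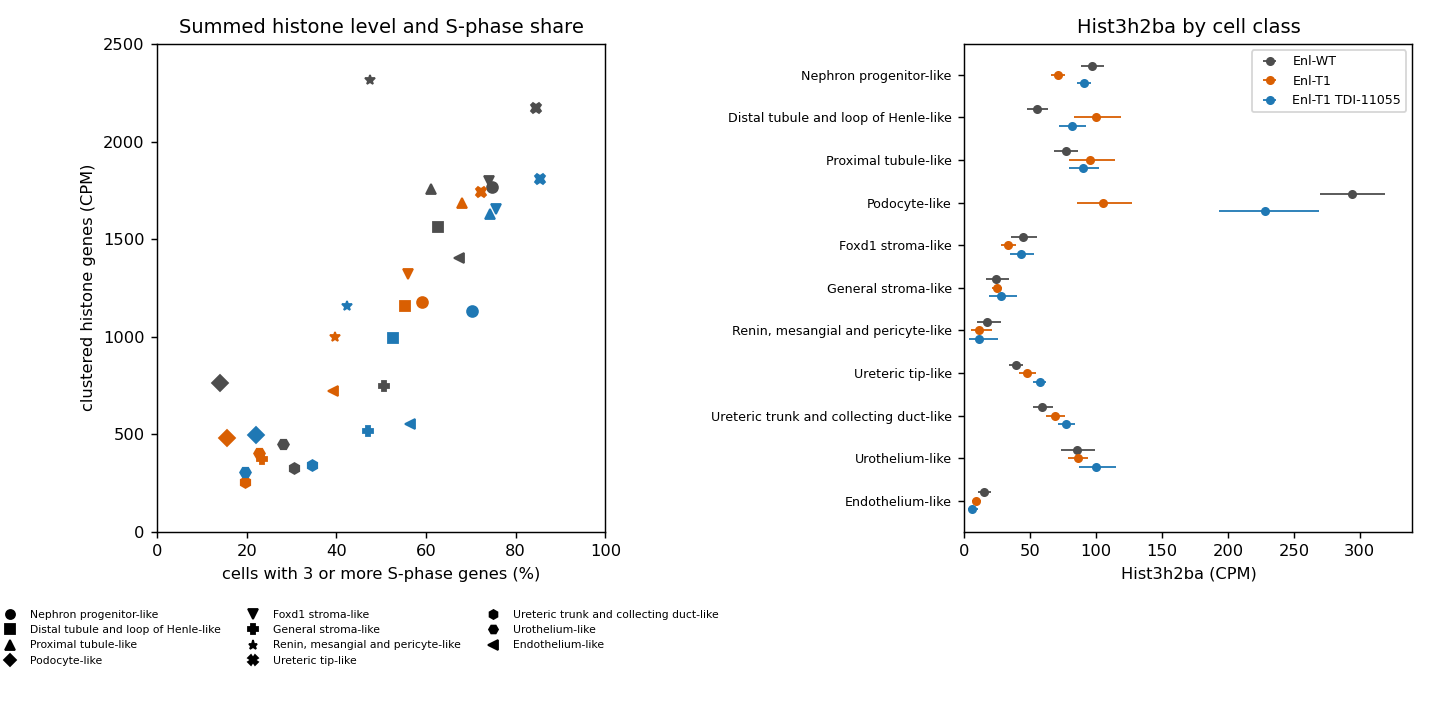
Left, summed level of the 67 members (CPM) against the share of S-phase cells (%), with 1 symbol per cell class and the library colours of the right panel. Right, Hist3h2ba (CPM, with 95% counting intervals) in each class. Hist3h2ba is highest in podocyte-like cells in all 3 libraries, in untreated Enl-T1 within the interval of the distal class and in treated Enl-T1 resting on 10 cells, and the summed level is high in ureteric tip-like cells and low in trunk and collecting duct-like cells.

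Podocyte-like cells stood out for Hist3h2ba, an H2B gene of the small cluster on chromosome 11. Its level there was 294 CPM in Enl-WT, 105 CPM in Enl-T1 and 228 CPM in treated Enl-T1. The lowest level was in endothelium-like cells, at 14.8, 8.76 and 5.68 CPM. In untreated Enl-T1 the podocyte-like class and the distal tubule and loop of Henle-like class, at 100 CPM for Hist3h2ba, did not differ beyond their counting intervals. Without thinning, 184 of 266, 61 of 122 and 32 of 41 podocyte-like cells had a Hist3h2ba UMI (69.2%, 50% and 78%). The share in endothelium-like cells was 8.35%, 8.95% and 7.83%. The median depths were 5089, 7432 and 14522 UMIs in podocyte-like and 5665, 10456 and 14222 UMIs in endothelium-like cells. In treated Enl-T1 the 10 podocyte-like cells with the most Hist3h2ba held 62.8% of its UMIs, and without them the level was 85 CPM, below the 100 CPM of the urothelium-like class. Its neighbour Hist3h2a was at 66.9, 39.3 and 48.8 CPM in podocyte-like cells. Hist1h2bc, the other H2B gene with more counts outside S phase, was highest in the renin, mesangial and pericyte-like class, at 90.1, 62.3 and 85.2 CPM. The next class was near it in Enl-WT (proximal tubule-like, 83.4 CPM). Foxd1 stroma-like cells followed in untreated and treated Enl-T1, at 52.3 and 59.5 CPM. The renin class of the treated library held 26 cells.

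Hist1h2ac, an H2A gene, was chosen after its values were seen, for a high level in 1 class of the treated library. In ureteric tip-like cells Hist1h2ac was at 20.9 CPM in Enl-WT, 18.9 CPM in Enl-T1 and 79.9 CPM in treated Enl-T1. Without thinning, 72 of 787, 57 of 318 and 171 of 440 of these cells (9.15%, 17.9% and 38.9%) had a Hist1h2ac UMI. Their median depth rose in the same order (5842, 13052 and 22979 UMIs), so these shares are not matched for depth. The most Hist1h2ac UMIs in 1 cell were 5, 4 and 36. The 10 cells with the most held 29.9%, 36.1% and 27.1% of its UMIs in that class, and without them the levels were 14.7, 12 and 58.2 CPM, so the difference remained. In ureteric epithelium as a whole Hist1h2ac was at 7.19 CPM in Enl-T1 and 44.9 CPM in treated Enl-T1 (6.25-fold, interval 5.13 to 7.69), a ratio that also holds a different mix of classes. Within classes Hist1h2ac differed 4.24-fold in ureteric tip-like, 5.18-fold in trunk and collecting duct-like (2.25 and 11.7 CPM) and 3.18-fold in urothelium-like cells (2.8 and 8.9 CPM), and with the classes at the same shares 4.25-fold. In stroma the ratio was 2.24 and in nephron cells 0.972. Its annotated gene overlaps Gm24991 on the same strand.

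The comparison of Enl-T1 with Enl-WT asks what the ENL mutation changes in the developing kidney. On the CPM scale the ratio of the median gene was below 1 in every lineage (log2 -0.41 in nephron, -0.31 in stroma, -0.30 in ureteric epithelium and -0.31 in endothelium), so ratios were also given relative to all genes, by median-of-ratios scaling. Summed histone counts in nephron cells were 1572.1 CPM in Enl-WT and 1170.8 CPM in Enl-T1, a ratio of 0.745 (interval 0.73 to 0.76) and of 0.99 relative to all genes. Without Hist1h1b the CPM ratio was 0.98. In stroma the ratio was 0.495 (0.479 to 0.511), in ureteric epithelium 0.616 (0.601 to 0.632) and in endothelium 0.514 (0.488 to 0.541). S-phase shares moved with these ratios. They were 61.3% in Enl-WT and 55.3% in Enl-T1 for nephron, 59.5% and 34.9% for stroma, 54.3% and 35.1% for ureteric epithelium and 67.3% and 39.3% for endothelium. With both libraries weighted to the same S-phase share the ratio was 0.751 in nephron, 0.639 in stroma and 0.776 in ureteric epithelium. Relative to all genes it was 0.612 in stroma and 0.76 in ureteric epithelium.

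The mix of cell classes within a lineage differed between the libraries too. Ureteric tip-like cells, high in histones, were 45.1% of the ureteric epithelium in Enl-WT and 27.1% in Enl-T1, and general stroma-like cells, low in histones, were 38.2% and 61.1% of stroma. Within classes the ratio of summed histones was 0.734 in Foxd1 stroma-like, 0.498 in general stroma-like and 0.432 in renin, mesangial and pericyte-like cells. It was 0.802 in ureteric tip-like, 0.776 in trunk and collecting duct-like and 0.899 in urothelium-like cells, and 0.664 in nephron progenitor-like and 0.959 in proximal tubule-like cells. With the classes at the same shares in both libraries the ratio was 0.733 in nephron, 0.605 in stroma and 0.808 in ureteric epithelium, so the last was no longer past 1.4-fold.

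H1 genes were lower in Enl-T1 nephron cells, at 0.412 of their Enl-WT level and 0.548 relative to all genes. The other types lay above H1, with 1.32 for H2A, 1.74 for H3 and 1.61 for H4 on the CPM scale and 1.76, 2.31 and 2.14 relative to all genes, while H2B turned from 0.831 to 1.1. These are ratios of sums, in which abundant genes weigh most. The median of 9 single H2A genes of at least 5 CPM was log2 -0.12 on the CPM scale, where the median of all genes was -0.41. H1 was also lower in stroma (0.298 on the CPM scale, 0.368 relative to all genes) and in ureteric epithelium (0.358 and 0.442). In those lineages H2A turned from 0.904 to 1.12 and from 0.946 to 1.17 between the scales, and H2B in ureteric epithelium from 0.998 to 1.23. The lower H1 counts were found within each of the 10 classes of these lineages, with ratios from 0.243 in general stroma-like to 0.607 in urothelium-like cells. At the same class shares H1 was at 0.416 in nephron, 0.374 in stroma and 0.493 in ureteric epithelium, and H2A at 1.26, 1.07 and 1.25.

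Genes were counted when their mean over nephron cells of Enl-WT and Enl-T1 was at least 5 CPM, with a UMI in both. Among the 32 members that passed, 12 were higher and 6 lower past 1.4-fold in Enl-T1, against 6.83% and 44.8% of all 10547 genes. The members' median was 0.14 on the log2 CPM scale, and that of 249 genes with at most 1000 exonic bases was 0.32, of which 98 were higher and 31 lower. Short genes thus lay on the same side as the histones, and the part of length in the result was not tested. By type, 0 of 5 H1 genes were higher and 4 lower, 3 of 9 H2A genes were higher and 1 lower, and 1 of 8 H2B genes was higher and 1 lower. All 5 H3 genes were higher, as were 3 of 5 H4 genes.

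Hist1h1b was at 604 CPM in nephron cells of Enl-WT and 222 CPM in Enl-T1, a ratio of 0.368 (0.353 to 0.383). Hist1h1c went from 59 to 21.7 CPM (0.368, 0.322 to 0.42) and Hist1h1e from 178 to 83.2 CPM (0.466, 0.435 to 0.5). Hist1h1d was nearly level, at 27.7 and 27 CPM. In the other direction, Hist1h3a was at 4.14 CPM in Enl-WT and 2.54 times that level in Enl-T1 (1.86 to 3.5), Hist1h3d at 4.07 and 9.86 CPM (2.43, 1.77 to 3.37) and Hist4h4 at 3.12 and 7.34 CPM (2.35, 1.63 to 3.44). The highest ratios were thus in H3 and H4 genes of low level. Of the abundant genes, Hist1h2ae was at 56.9 and 108 CPM and Hist1h2ap at 25.3 and 48.1 CPM (1.9 for both), Hist1h4d at 63.4 and 102 CPM (1.61), and Hist3h2ba at 109 and 78 CPM (0.718, and 0.955 relative to all genes).

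**Figure D5:**
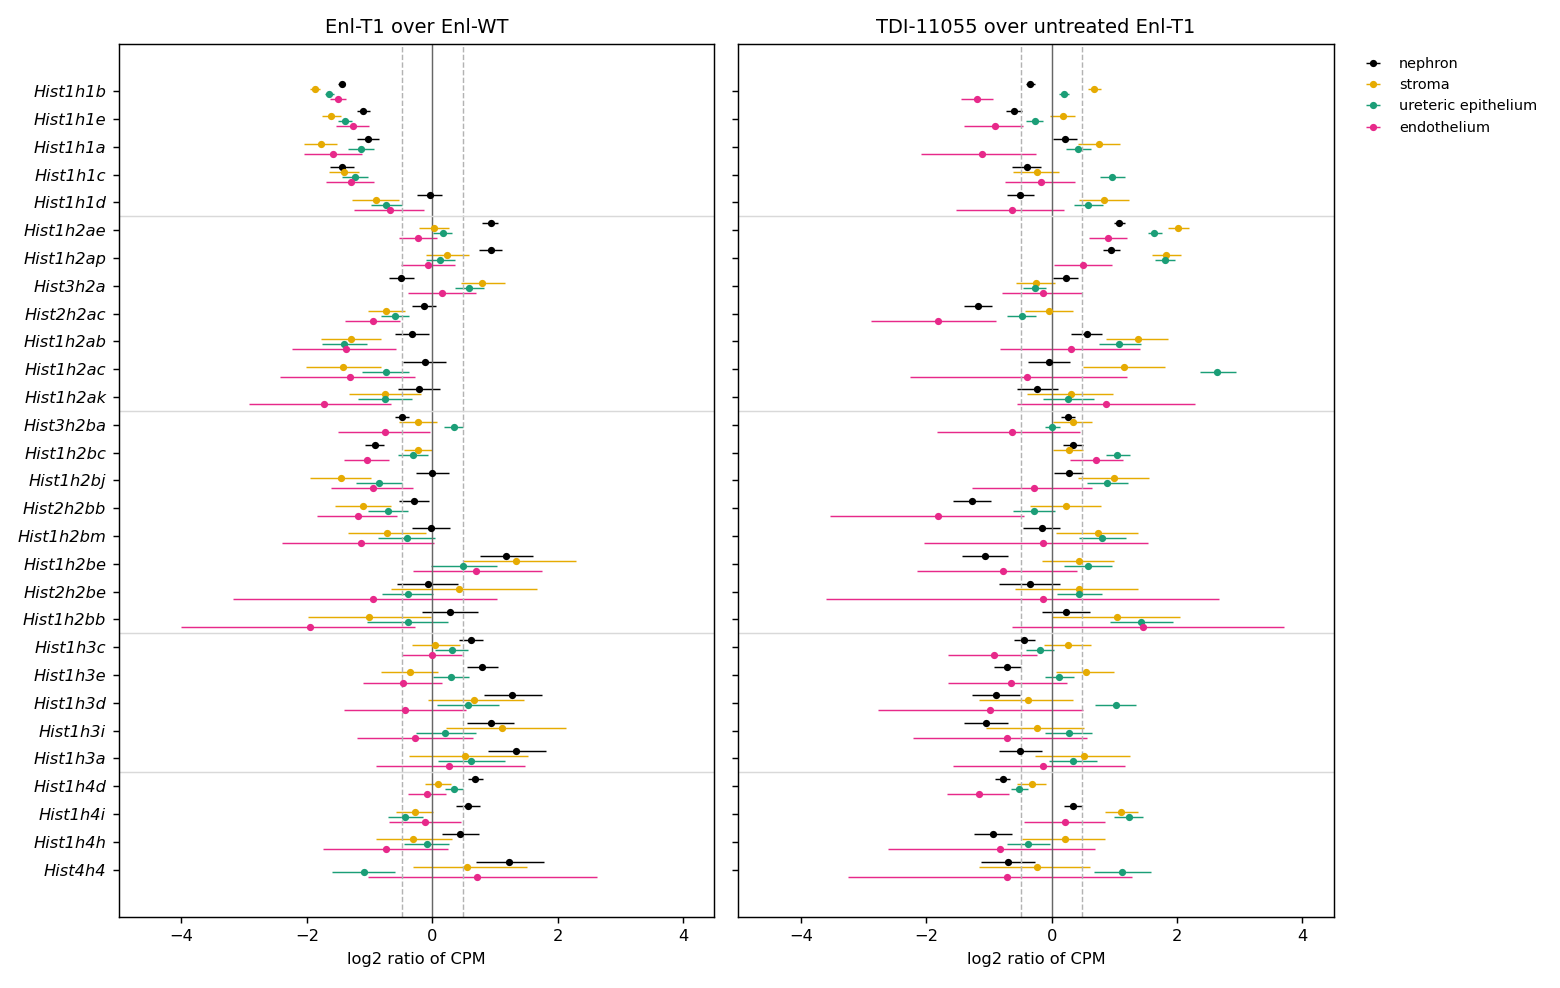
Ratio of CPM (log2) of 29 members between Enl-T1 and Enl-WT (left) and between TDI-11055-treated and untreated Enl-T1 (right) in 4 lineages, with bars for the 95% counting interval and dashed lines at 1.4-fold. Hist1h1b, Hist1h1e, Hist1h1a and Hist1h1c lie left of the line in all lineages on the left, and Hist1h2ae and Hist1h2ap right of it on the right. The CPM scale of the left panel carries the shift of the median gene.

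The lower H1 counts were seen in each lineage. Hist1h1b had ratios of 0.273 in stroma, 0.32 in ureteric epithelium and 0.354 in endothelium, Hist1h1e 0.328, 0.382 and 0.414, Hist1h1a 0.291, 0.456 and 0.335, and Hist1h1c 0.375, 0.425 and 0.405. These 4 were the members lower past 1.4-fold in all 4 lineages. Of all genes, 34.6% to 44.8% were lower in a single lineage, and the share lower in all 4 was not counted. Hist1h2be was the 1 member higher past 1.4-fold in all 4, at 2.26 in nephron, 2.52 in stroma, 1.41 in ureteric epithelium and 1.62 in endothelium, where the intervals of the last 2 reached down to 0.983 and 0.81. Of all genes, 6.83% to 8.72% were higher in a single lineage, and the share higher in all 4 was not counted either. Hist1h2be overlaps Hist1h1e on the same strand.

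In stroma 3 members were higher and 12 lower of 24 (8.72% and 37.1% of all genes), in ureteric epithelium 4 and 12 of 28 (7.48% and 34.6%), and in endothelium 1 and 15 of 25 (7.53% and 36.4%). The members' log2 medians were -0.54, -0.40 and -0.76, against 0.33, 0.40 and 0.18 for the short genes. In these lineages the histones were on the other side of the median gene from short genes.

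The lower H1 counts were also seen at a fixed stage of the cycle. In cells with both S-phase and mitosis genes, over all lineages, Hist1h1b in Enl-T1 was at 0.511 of Enl-WT (0.495 to 0.527). H1 genes together were at 0.546, while H2A was at 1.43, H3 at 1.8 and H4 at 1.75.

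The comparison of treated with untreated Enl-T1 kidneys asks what blocking the acyl-binding pocket does. It shares the untreated Enl-T1 library with the comparison above, so a low or high value there enters both with opposite sign. Here the median gene was nearly level (log2 -0.00 in nephron, 0.03 in stroma, 0.02 in ureteric epithelium and -0.06 in endothelium). Summed histone counts in nephron cells were 1170.8 CPM in untreated and 1161.1 CPM in treated Enl-T1, a ratio of 0.992 (0.972 to 1.01). In stroma the ratio was 1.59 (1.53 to 1.65), in ureteric epithelium 1.45 (1.41 to 1.48) and in endothelium 0.765 (0.709 to 0.825). S-phase shares in the treated library were 66.6% in nephron, 63.5% in stroma, 54.5% in ureteric epithelium and 56.5% in endothelium. At the same S-phase share the ratio was 0.952 in nephron, 1.21 in stroma and 1.1 in ureteric epithelium. With a mitochondrial limit of 5% the ureteric ratio was 1.04.

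Here too the mix of classes differed. Ureteric tip-like cells were 27.1% of the ureteric epithelium in untreated and 43% in treated Enl-T1, and general stroma-like cells were 61.1% and 31.3% of stroma. Within classes the ratio was 1.04 in ureteric tip-like, 1.35 in trunk and collecting duct-like and 0.766 in urothelium-like cells, and it was 1.25 in Foxd1 stroma-like, 1.38 in general stroma-like and 1.16 in renin, mesangial and pericyte-like cells. With the classes at the same shares the ratio was 0.948 in nephron, 1.27 in stroma and 1.05 in ureteric epithelium. The higher sums in these lineages were thus smaller within classes than over the lineage, and none of the classes named here was past 1.4-fold.

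Over a lineage, H2A was the type with the highest ratio, at 1.56 in nephron, 2.42 in stroma, 2.31 in ureteric epithelium and 1.25 in endothelium. These are ratios of sums, in which abundant genes such as Hist1h2ae and Hist1h2ap weigh most. The log2 median of single H2A genes of at least 5 CPM was -0.11 in nephron, where 3 of 10 were higher and 1 lower. In stroma it was 1.16, in ureteric epithelium 1.08 and in endothelium 0.31. H1 was at 0.78, 1.46, 1.17 and 0.501. At the same S-phase share H2A remained above 1, at 1.49 in nephron, 1.78 in stroma and 1.7 in ureteric epithelium, whereas H1 was at 0.735, 1.01 and 0.841. H3 and H4, at 1.26 and 1.15 in stroma and 1.19 and 1.06 in ureteric epithelium, turned to 0.973 and 0.909 and to 0.86 and 0.802 at the same S-phase share. At the same class shares H2A was at 1.5 in nephron, 1.91 in stroma and 1.62 in ureteric epithelium, whereas H1 was at 0.72, 1.15 and 0.793. In nephron H3 was at 0.673, H4 at 0.767 and H2B at 1.01, the last turning to 0.966 without mitochondrial, ribosomal and haemoglobin genes in the total.

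Of 32 members in nephron cells, 3 were higher and 12 lower past 1.4-fold (9.67% and 10.8% of all genes). All 3 that were higher were among the 10 H2A genes tested. The lower ones were 2 H1, 1 H2A, 2 H2B, 4 H3 and 3 H4 genes. In stroma 12 members were higher and 0 lower of 26 (15.8% of all genes were higher, and 1587 of 10219 lower), in ureteric epithelium 14 and 1 of 29 (11.5% and 12.8%), and in endothelium 3 and 12 of 20 (13.4% and 23.4%). The log2 medians of the members were -0.29 in nephron, 0.39 in stroma, 0.44 in ureteric epithelium and -0.65 in endothelium.

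Hist1h2ae was at 108 CPM in nephron cells of untreated and 229 CPM in those of treated Enl-T1, a ratio of 2.11 (2 to 2.24). Hist1h2ap went from 48.1 to 93 CPM (1.94, 1.77 to 2.12) and Hist1h2ab reached 21.4 CPM (1.47, 1.24 to 1.75). The lowest ratios belonged to Hist2h2bb, from 18.3 to 7.59 CPM (0.416, 0.337 to 0.512), Hist2h2ac, from 31.6 to 14 CPM (0.442, 0.378 to 0.515), and Hist1h2be, from 11.3 to 5.43 CPM (0.479, 0.371 to 0.617). Of these, Hist2h2bb and Hist2h2ac belong to the Hist2 cluster on chromosome 3. Hist1h1b was at 222 and 175 CPM (0.789) and Hist1h4d at 102 and 59.4 CPM (0.581).

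Hist1h2ae and Hist1h2ap were the members higher past 1.4-fold in all 4 lineages, and no member was lower in all 4. Of all genes, 9.67% to 15.8% were higher in a single lineage, and the share higher in all 4 was not counted. Hist1h2ae went from 48.8 to 198 CPM in stroma (4.05), from 55.4 to 173 CPM in ureteric epithelium (3.12) and from 54.7 to 102 CPM in endothelium (1.87). Hist1h2ap went from 27 to 96.1 CPM (3.55), from 25.3 to 88.5 CPM (3.49) and from 29.7 to 42 CPM (1.41, 1.03 to 1.94). The ureteric epithelium lies outside the reach of the Cre driver. At the same class shares Hist1h2ae was at 2.03 in nephron, 2.99 in stroma and 1.99 in ureteric epithelium, and Hist1h2ap at 1.88, 2.84 and 2.27. Within classes Hist1h2ae ranged from 1.2 in podocyte-like and urothelium-like cells to 4.6 in trunk and collecting duct-like cells, where it went from 5.44 to 25 CPM. In cells with both S-phase and mitosis genes, over all lineages, the ratio was 2.36 for Hist1h2ae (2.23 to 2.49) and 2.44 for Hist1h2ap. In cells with neither, Hist1h2ae went from 7.05 to 26.9 CPM (3.81) and Hist1h2ap from 2.3 to 8.26 CPM (3.59). Hist1h4i, an H4 gene, was at 2.16 in stroma, 2.34 in ureteric epithelium and 1.16 in endothelium.

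Genes that act on or beside the clustered histones were counted by the same fold rule. The 39 S-phase genes were at a log2 median of -0.15 in Enl-T1 over Enl-WT in nephron (2 higher, 7 lower), -0.57 in stroma (0 and 25), -0.61 in ureteric epithelium (0 and 25) and -0.78 in endothelium (0 and 31). Of all genes, 44.8%, 37.1%, 34.6% and 36.4% were lower past 1.4-fold in these comparisons. In treated over untreated Enl-T1 they were at 0.16 (5 and 1), 0.76 (28 and 0), 0.64 (26 and 0) and 0.58 (20 and 1), where 9.67%, 15.8%, 11.5% and 13.4% of all genes were higher. The 5 mitosis genes did not go with them under treatment, at -0.91 in nephron (0 higher, 4 lower), -0.45 in stroma (0 and 2), -0.59 in ureteric epithelium (0 and 4) and -0.03 in endothelium (1 and 2). By comparison, 10.8% of all genes were lower under treatment in nephron, 1587 of 10219 in stroma, 12.8% in ureteric epithelium and 23.4% in endothelium. In Enl-T1 over Enl-WT the mitosis genes were at -0.38, -0.74, -0.71 and -0.94. The summed histones had ratios on the same side of 1 as the S-phase genes in stroma and ureteric epithelium in both comparisons. This was not so under treatment in endothelium (0.765) or nephron (0.992).

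Genes for histone transcription and 3′ end formation numbered 15, of which 14 were tested in nephron. Their log2 median in Enl-T1 over Enl-WT was -0.34, with 1 higher and 5 lower, a smaller share than the 44.8% of all genes that were lower, and the median gene was at -0.41. Npat, the coactivator that recruits transcription to histone clusters, was at 46.4 and 25 CPM (0.538), and Sympk, a scaffold of the cleavage complex, at 53.9 and 27.3 CPM (0.506). Ccne2, a cyclin of the entry into S phase, was at 15 and 24.4 CPM (1.62). Under treatment 1 of 14 was higher and 0 lower in nephron, against 9.67% and 10.8% of all genes. The counts higher were 4 in stroma and 1 in ureteric epithelium, against 15.8% and 11.5% of all genes, and 0 were lower. Endothelium had 1 higher and 2 lower, against 13.4% and 23.4% of all genes. Ccne1 went from 42.3 to 101 CPM in stroma (2.39) and from 19 to 38.2 CPM in ureteric epithelium (2.01).

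Of 11 histone chaperones and assembly factors, 0 were higher and 5 lower in Enl-T1 nephron cells (log2 median -0.33), near the 44.8% of all genes, among them Ssrp1, a subunit of the FACT complex, at 306 and 200 CPM (0.652). Under treatment 1 was higher in nephron, 7 in stroma and 4 in ureteric epithelium, against 9.67%, 15.8% and 11.5% of all genes, and 0 were lower. Chaf1b, of the CAF-1 complex that loads H3 and H4 on new DNA, went from 23.9 to 39.4 CPM in nephron (1.65), and Nasp, a chaperone of H3 and H4, from 365 to 630 CPM in ureteric epithelium (1.73). Of 11 histone genes outside the clusters, which are made throughout the cycle or in special chromatin, 0 were past 1.4-fold in nephron in either comparison, with log2 medians of 0.18 and 0.12. In ureteric epithelium H2afj was at 108 CPM in Enl-WT and 211 CPM in Enl-T1 (1.96), and was lower again in treated Enl-T1, at 0.667 of untreated.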

How the data were processed

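Kidney suspensions were run on the 10x Chromium 3′ assay by the authors, who aligned the reads to mm10 with Cell Ranger 6.1.2 and deposited raw UMI counts per gene and barcode for the barcodes called as cells, with no further filter. The annotation release was not given in the sources used here. Barcodes were filtered at 1000 to 6000 genes and at most 10% mitochondrial counts. Doublets were kept in the main values. The calls of scrublet numbered 123, 41 and 2, too few in the last library to have worked. The run without likely doublets therefore left out the 301, 218 and 142 cells of highest scrublet score, at an assumed 0.8% per 1000 barcodes. Whether the scores worked in the last library was not tested. Clustering used Seurat 5.3.0 (2000 variable genes, 30 components, resolution 0.5), without 368 genes that included the members and the cycle lists. UMIs were summed per library and class and divided by the summed UMIs of all genes (CPM). Ratios carry exact binomial intervals, shares exact Clopper-Pearson intervals and single sums exact Poisson intervals. A count of 1.4-fold or more is a rule of size, not a test. Python 3.11.15 and scanpy 1.11.5 were used. The code was tested on simulated data.

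The members and gene lists were chosen with earlier results of these data known. Members of at least 5 CPM were named, in full the 6 of highest level, the 3 highest and 3 lowest in S-phase ratio, and up to 3 higher and 3 lower in nephron cells per comparison. Positions came from GENCODE M21.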

Additional observations from a re-analysis of the deposited data

Results flagged for a closer look

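Some members were past 1.4-fold in opposite directions in different lineages. These differences were not tested, since each group was 1 library, and the mix of cell classes within a lineage also differed between libraries. In treated over untreated Enl-T1, Hist1h1a was at 1.7 in stroma and 0.462 in endothelium, and Hist1h1b at 1.6 and 0.439 in the same lineages, or 1.24 in stroma with the classes at the same shares. Hist1h1d was at 1.79 in stroma and 1.5 in ureteric epithelium but 0.709 in nephron. Hist1h2be was at 1.49 in ureteric epithelium and 0.479 in nephron, and Hist1h3d at 2.02 and 0.54. Hist1h3e was at 1.45 in stroma and 0.613 in nephron, and Hist4h4 at 2.18 in ureteric epithelium and 0.617 in nephron.

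In Enl-T1 over Enl-WT, Hist3h2a was at 1.75 in stroma and 1.5 in ureteric epithelium but 0.711 in nephron, where it was 0.946 relative to all genes and so no longer past 1.4-fold. Hist4h4 was at 2.35 in nephron and 0.471 in ureteric epithelium, the reverse of its order under treatment, with the Enl-T1 library shared by both comparisons.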

How the results depend on the processing

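Summed histones stayed below Enl-WT in stroma and ureteric epithelium of untreated Enl-T1, higher in S-phase cells, and higher in treated stroma and ureteric epithelium under each alternative run, while the deficit in nephron was all but gone with median-of-ratios scaling and the nephron ratio under treatment lay on both sides of 1. No alternative was run for endothelium. For Enl-T1 over Enl-WT in nephron, stroma and ureteric epithelium (0.745, 0.495 and 0.616), median-of-ratios scaling gave 0.99, 0.612 and 0.76, and totals without mitochondrial, ribosomal and haemoglobin genes 0.904, 0.562 and 0.678. Equal weight per cell gave 0.7 in nephron and 0.57 in ureteric epithelium, a mitochondrial limit of 5% gave 0.722, 0.433 and 0.579, leaving out likely doublets 0.729 in nephron and 0.596 in ureteric epithelium, and the same S-phase share 0.639 in stroma and 0.776 in ureteric epithelium. For treated over untreated Enl-T1 (0.992, 1.59 and 1.45), the totals without those genes gave 0.949 in nephron, equal weight per cell 1.16, 1.73 and 1.37, the limit of 5% 0.93, 1.51 and 1.04, leaving out likely doublets 1.52 in ureteric epithelium, and the same S-phase share 0.952, 1.21 and 1.1. The cause of the 1.04 in ureteric epithelium was not tested.

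The S-phase ratios (3.85, 3.67 and 3.23) were 3.47 in untreated and 3.07 in treated Enl-T1 with at least 2 genes, 3.55 in Enl-WT and 3.52 in Enl-T1 with at least 5, 3.23, 3.19 and 3.08 with thinning to 1000 UMIs, and 3.32, 2.68 and 2.34 in nephron cells alone. Past 1.4-fold in nephron cells, 11 of 29 members were higher and 6 lower in Enl-T1 over Enl-WT, against 25 and 7 of 48 with a minimum of 1 CPM, 5 and 6 of 14 with 20 CPM, and 13 and 5 of 29 with median-of-ratios scaling. Under treatment 3 were higher and 12 lower, against 5 and 16 of 48, 2 and 4 of 14, and 3 and 12 of 29. The share of all genes past 1.4-fold was not counted under these settings, so these counts do not set the members against other genes.

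With the classes at the same shares of a lineage, an alternative chosen after the data were seen, Enl-T1 over Enl-WT was 0.605 in stroma and 0.808 in ureteric epithelium, and treated over untreated Enl-T1 0.948 in nephron, 1.27 in stroma and 1.05 in ureteric epithelium. With no maximum of genes per barcode, chosen likewise as were the scaled counts, some directions over all kept cells turned. Treated over untreated, H1 was at 1.18, H3 at 1.14, H4 at 1.08 and Hist1h1b at 1.17, and H2A in Enl-T1 over Enl-WT was at 0.952. No paired analysis was possible because each group had 1 library. The median depth ranged from 5090 to 16931 UMIs per cell, and members under 5 CPM were not compared one by one.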
